A study of Bombus terrestris with 8 samples.

Results

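The miRNAs miR-252 and miR-252b, here Bte-miR-252 and Bte-miR-252b, are paralogous microRNAs (miRNAs) of the bumblebee Bombus terrestris whose precursors lie next to each other on 1 scaffold. They were picked by name and account for 2 of the 123 rows, and 2 of the 111 distinct mature sequences, in the table of miRNAs sequenced from female larvae. The larvae of interest were late-instar queen-destined larvae (LQ) of the fourth instar, whose caste was fixed, and they were set against early-instar queen-destined larvae (EQ) of the first or the second instar, which could still become either caste. All were diploid, and all came from colonies whose queen had been removed, which induces queen production but did not yield queens in every colony. The study chose colonies with the highest shares of queens. It judged caste fate from larvae of the same batches left to develop, nearly all of which became queens. Each library was made from a pool of whole larvae of 1 colony and instar, so it shows neither a single larva nor a single tissue. The comparison rests on 3 libraries per instar, LQ1, LQ3 and LQ4 against EQ1, EQ3 and EQ4, with libraries of the same number taken from the same colony. EQ2, which the study set aside after checking how it normalized, is given beside them, and LQ2 was not analysed here. Values are normalized reads, that is, reads that the study scaled to the same total of accepted reads in every library. In whole bodies, fewer cells of a type and less RNA per cell cannot be told apart.

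The summed normalized reads of the table were 193303 to 259624 in late-instar libraries and 234595 to 244868 in early-instar libraries, but only 148819 in EQ2. EQ2 thus reached 62.2% of what EQ1, EQ3 and EQ4 averaged. Bte-miR-1, the miRNA of muscle, was the most abundant sequence in all 7 libraries. With each distinct sequence counted once, it took 40.1 to 44.0% of the summed reads in late-instar libraries and 40.1 to 43.8% in early-instar ones. The table lists miRNAs only, so mRNA markers of instar or tissue could not be checked.

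A miRNA guides the silencing complex to messenger RNAs by pairing, chiefly through the bases near its 5′ end that are called the seed. Members of a family that share a seed can act on the same targets, and neighbouring miRNAs are often, but not always, cut from 1 primary transcript. In Drosophila, miR-252 has been tied to the steroid hormone ecdysone, which times moulting, and has been reported to repress Abi, a regulator of actin, and mushroom bodies tiny, a kinase of growth. Larval instars are separated by pulses of ecdysone, while juvenile hormone governs both moulting and queen development in bees.

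The mature sequences are shown first because the 2 miRNAs differ at the edge of the seed. They are written 5′ to 3′ as deposited, with T for U and with bases 2 to 8, the seed, in capitals.
Bte-miR-252: aTAAGTACtagtgccgcagga
Bte-miR-252b: tTAAGTAGtagtgccgtagatga
Bases 2 to 7 were identical, and no other sequence among the 111 carried them. Base 8 differed. Over the first 21 bases the sequences were identical at 16 positions and differed at 5, written A1T, C8G, C17T, G20A and A21T with the base of Bte-miR-252 first and positions counted from 1 at the 5′ end. The longest shared run covered positions 9 to 16. Bte-miR-252 was 21 and Bte-miR-252b 23 bases long. Every other sequence in the table differed from each of them at 11 or more positions, while whether any reads were shared within the pair was not tested.

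The precursors are printed because they show the arm each miRNA comes from and how far the paralogues have parted outside the mature sequence, which is in capitals.
Precursor of Bte-miR-252: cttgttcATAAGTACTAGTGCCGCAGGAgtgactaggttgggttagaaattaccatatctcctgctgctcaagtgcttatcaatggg
Precursor of Bte-miR-252b: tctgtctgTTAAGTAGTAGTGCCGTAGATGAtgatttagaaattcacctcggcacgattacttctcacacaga
By the coordinates of genome v.1.0, the hairpin of Bte-miR-252b runs over bases 2540154 to 2540226 of scaffold Group15.5 and that of Bte-miR-252 over bases 2545896 to 2545982, both on the plus strand, with 5669 bases between them. Mature Bte-miR-252 lies at 2545903 to 2545923 and mature Bte-miR-252b at 2540162 to 2540184, each in the 5′ arm. Only that arm is listed for either. The precursors, of 87 and 73 bases, were identical in 54 of 89 aligned columns, or 60.7%. Folding predicted a hairpin for both, at −30.1 kcal/mol for Bte-miR-252 and −26.9 kcal/mol for Bte-miR-252b. The fold paired 18 bases of each mature sequence. No annotation of this genome build was used here, so whether the hairpins lie within a gene is not given.

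Bte-miR-252 was lower in late-instar than in early-instar larvae. LQ1, LQ3 and LQ4 held 910, 1130 and 775 normalized reads, and EQ1, EQ3 and EQ4 held 2150, 2551 and 1753. The instars did not overlap, with the highest late-instar library well under the lowest of these early-instar ones. The means were 938 ± 179 reads in late-instar and 2151 ± 399 in early-instar larvae (SD, n = 3 each), a late-over-early ratio of 0.436. On the log2(value + 20) scale the fold change was −1.18 (SE 0.25, 95% interval −1.71 to −0.65, limma with Benjamini-Hochberg adjustment, adjusted p = 6.23e-04). An exact two-sided permutation test gave p = 0.1, the smallest that 3 against 3 libraries allow. Within colonies 1, 3 and 4 the log2 differences were −1.22, −1.16 and −1.16, almost the same size each time on the deposited scale. EQ2 held 1129 reads, 1 read below LQ3, so on this scale the ranges of the instars touch once it is counted. With EQ2 the fitted log2 fold change was −0.95 (limma adjusted p = 0.00440) and the exact permutation test gave p = 0.114.

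Bte-miR-252b was higher in late-instar larvae, by a call that several single libraries decide. LQ1, LQ3 and LQ4 held 821, 813 and 1284 normalized reads, and EQ1, EQ3 and EQ4 held 305, 432 and 789. The instars did not overlap, but the gap was narrow, since the highest early-instar library, EQ4, lay just under LQ3. The means were 973 ± 270 reads in late-instar and 508.7 ± 251 in early-instar larvae (SD, n = 3 each), 1.91 times as high. The log2 fold change was 0.98 (SE 0.30, 95% interval 0.35 to 1.61, limma adjusted p = 0.0104), and the exact two-sided permutation test gave p = 0.1. The limma SE borrows spread from other rows and is smaller than the pools of Bte-miR-252b alone would give. The log2 differences within colonies 1, 3 and 4 were 1.37, 0.88 and 0.69, so the direction was shared and the size was not. The call was lost without EQ1 (0.68, limma adjusted p = 0.0890), without LQ1 (1.08, limma adjusted p = 0.0545) and without LQ4 (0.77, limma adjusted p = 0.0709), and also with a pseudocount of 1 or 100 in place of 20. EQ2 held 174 reads, the lowest of all, and with it the fold change was 1.32 (limma adjusted p = 5.46e-05) and the exact permutation test gave p = 0.0571, the smallest that 3 against 4 libraries allow. EQ2 was low over the whole table, however. After rescaling to a common table total, the fold change with EQ2 was 1.31 (limma adjusted p = 0.00429).

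These changes stood among many. Of the 97 distinct sequences tested, 41 passed an adjusted p of 0.05 between the instars (42.3%), 15.5% higher and 26.8% lower in late-instar larvae. Over the 100 rows fitted, which list some sequences more than once, the share was 43%, with 16% higher and 27% lower. In 46.8% of the 111 distinct sequences the 3 late-instar and 3 early-instar values did not overlap, 16.2% with the late-instar values higher and 30.6% with them lower. Passing the test or not overlapping is therefore common in this table. Among the 97, 13 sequences had a fold change below that of Bte-miR-252 and 9 had one above that of Bte-miR-252b. By the study's own measure, an offset fold change (OFC) that divides the lowest value of the higher instar by the highest value of the lower instar after adding 20 to both, and that is 0 where the instars overlap, Bte-miR-252 had a log2 OFC of −0.62 and Bte-miR-252b of 0.042. The first became 0 with EQ2 included, or −0.59 with EQ2 after rescaling to a common table total. The second became 0.88 without EQ4 and 0 after rescaling to a common table total. Neither reached a log2 OFC of 1 in either direction, which 12 of the 123 rows (9.76%), or 9.91% of distinct sequences, did.

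**Figure D1:**
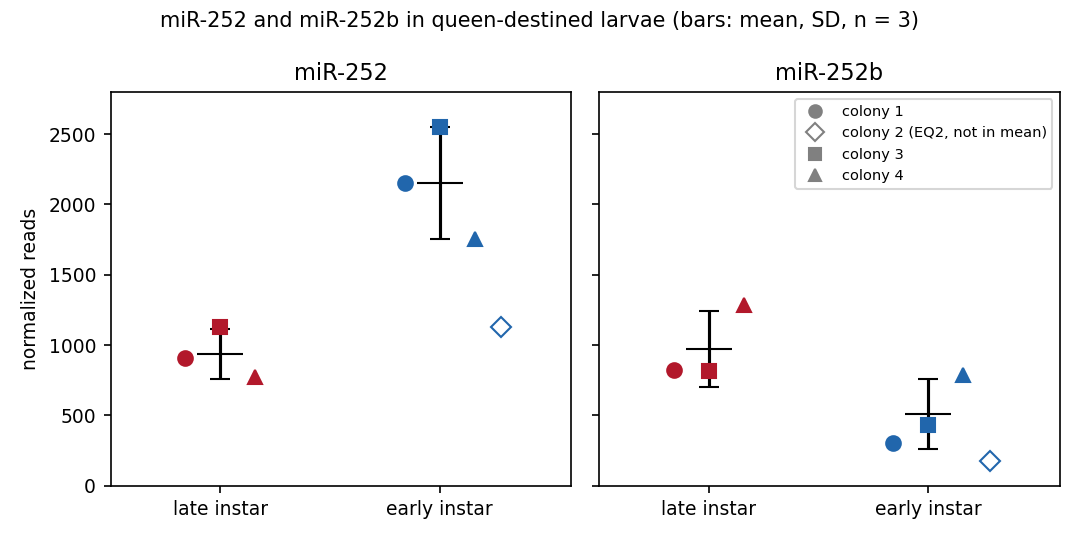
Normalized reads (vertical axis, linear from 0) of Bte-miR-252 (left panel) and Bte-miR-252b (right panel) in late-instar and early-instar queen-destined larvae, 1 point per library with the symbol giving the colony, and bars for the mean and SD of 3 libraries. Bte-miR-252 averaged 938 reads in late-instar and 2151 in early-instar larvae, Bte-miR-252b averaged 973 reads in late-instar and 508.7 in early-instar larvae, and the open diamond is EQ2, which is not in the means.

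The scaling of the libraries moved both values without turning either. The median log2 fold change over all rows tested was −0.15 as deposited, −0.03 after rescaling to a common table total, and 0.05 after median-ratio scaling. Relative to that median, Bte-miR-252 stood at −1.03, −0.99 and −0.99 on the log2 scale under these 3 scalings, and Bte-miR-252b at 1.13, 1.17 and 1.17. As a share of the summed reads over distinct sequences, Bte-miR-252 took 0.464 ± 0.073% in late-instar and 0.952 ± 0.154% in early-instar larvae (SD, n = 3 each). Bte-miR-252 took 0.525, 0.483 and 0.384% in LQ1, LQ3 and LQ4, and 0.954, 1.104 and 0.797% in EQ1, EQ3 and EQ4. The fall of Bte-miR-252 was thus less even between colonies than on the deposited scale. In EQ2 it took 0.802%, above the late-instar libraries (0.384 to 0.525%), and with EQ2 the exact permutation test gave p = 0.0571. Bte-miR-252b took 0.474, 0.348 and 0.636% in LQ1, LQ3 and LQ4, and 0.135, 0.187 and 0.359% in EQ1, EQ3 and EQ4. On this scale EQ4 lay above LQ3, the instars overlapped, and the exact permutation test gave p = 0.2. With EQ2, at 0.124%, the exact permutation test gave p = 0.114.

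Since the members changed in opposite directions, their log2 ratio necessarily differed more between the instars than either member did. Bte-miR-252b gave 47.4, 41.8 and 62.4% of the reads of the pair in LQ1, LQ3 and LQ4, and 12.4, 14.5 and 31.0% in EQ1, EQ3 and EQ4. The instars did not overlap, and EQ2, at 13.4%, lay with EQ1 and EQ3. The means were 50.5 ± 10.6% in late-instar and 19.3 ± 10.2% in early-instar larvae (SD, n = 3 each). The exact two-sided permutation test gave p = 0.1 with 3 libraries each and p = 0.0571 with EQ2. Bte-miR-252 thus outnumbered Bte-miR-252b in every early-instar library, whereas in late-instar larvae it did so in LQ1 and LQ3 and was the fewer in LQ4. Reads of 2 different sequences are compared here, and whether the libraries captured them equally was not tested.

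**Figure D2:**
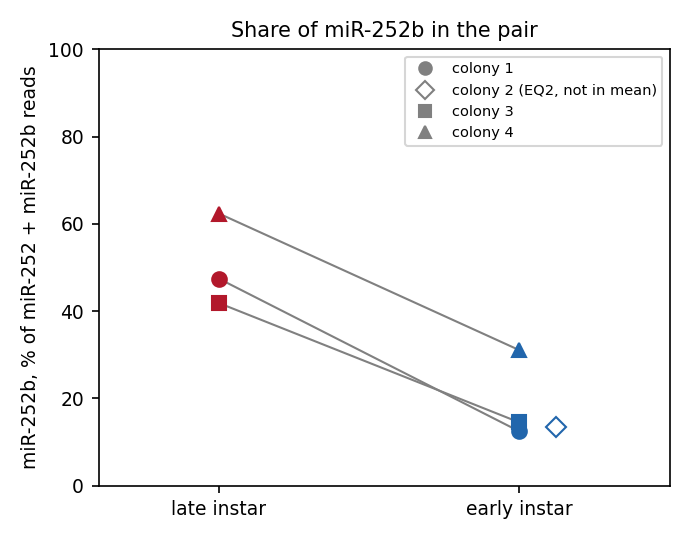
Share of Bte-miR-252b in the summed reads of Bte-miR-252 and Bte-miR-252b (vertical axis, percent) in late-instar and early-instar larvae, with lines joining the libraries of 1 colony and an open diamond for EQ2. The share was 41.8 to 62.4% in late-instar libraries and 12.4 to 31.0% in the early-instar libraries EQ1, EQ3 and EQ4, and was higher in the late instar in each of the 3 colonies.

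Because both miRNAs were read in the same libraries, their ratio is free of the scaling between libraries apart from the added 20. The log2 ratio of Bte-miR-252b to Bte-miR-252 was higher in late-instar larvae by 2.16 (SE 0.36, 95% interval 1.43 to 2.89, limma adjusted p = 4.80e-06), or 4.47-fold. Within colonies 1, 3 and 4 it was higher by 2.59, 2.04 and 1.85. The log2 ratio had an SD of 0.61 in late-instar and 0.87 in early-instar larvae, and the exact permutation test gave p = 0.1. All rows in this limma fit share Bte-miR-252 as denominator, and their spread is pooled. Its SE and adjusted p are therefore smaller than these libraries alone would give. The ratio passed the limma test under all 13 alternatives tried, with values of 1.82 to 2.66. Among these, dropping the filter and the replicate block, with or without EQ2, cannot move the estimate and bear only on the p-value. Since Bte-miR-252 itself fell, most miRNAs rose relative to it. Of the 99 rows set against it, 73.7% passed the same test, 68.7% of the 99 with a higher ratio in late-instar larvae, and 9 of 96 distinct sequences rose against Bte-miR-252 by more than Bte-miR-252b did. The sum of the pair was 1731, 1943 and 2059 reads in LQ1, LQ3 and LQ4, and 2455, 2983 and 2542 in EQ1, EQ3 and EQ4. It averaged 1911 ± 166 in late-instar and 2660 ± 283 in early-instar larvae, with no overlap (exact permutation p = 0.1). EQ2, at 1303, lay below all of them, and with EQ2 the exact permutation test gave p = 0.4. As a share of the summed reads over distinct sequences, the pair took 0.831 to 1.02% in late-instar libraries. It took 1.09 to 1.29% in EQ1, EQ3 and EQ4. EQ2, at 0.926%, lay within the late-instar range, and with EQ2 the exact permutation test on this share gave p = 0.229.

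In abundance, Bte-miR-252 ranked 23, 19 and 26 of the 111 distinct sequences in LQ1, LQ3 and LQ4, against 14 in EQ1, EQ3, EQ4 and EQ2 alike. Bte-miR-252b ranked 25, 29 and 20 in LQ1, LQ3 and LQ4, against 38, 33 and 24 in EQ1, EQ3 and EQ4 and 42 in EQ2. Bte-miR-252 thus ranked above its paralogue in every library other than LQ4. Bte-miR-252 varied evenly among replicate libraries, with a coefficient of variation of 19.1% in late-instar and 18.5% in early-instar larvae. For Bte-miR-252b it was 27.7% in late-instar and 49.3% in early-instar larvae. The medians over 96 sequences were 33.4% in late-instar and 20.9% in early-instar larvae, and in early-instar larvae 12 sequences varied more than Bte-miR-252b. Much of that spread came from colony 4, where Bte-miR-252b was high in both instars: LQ4 held 1.57 times the mean of LQ1 and LQ3, and EQ4 held 2.14 times the mean of EQ1 and EQ3.

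The pair was then set beside other neighbouring miRNAs of the table, none of which had both members called in opposite directions. Of 15 pairs of distinct mature sequences with precursors within 10000 bases on 1 strand, 12 had both members tested. In the other 11 of these, 9 had fold changes of the same sign and 2 of opposite sign, 4 had both members called in the same direction, and 0 had members called in opposite directions. Bte-miR-252b and Bte-miR-252 differed by 2.16 on the log2 scale, against a median absolute difference of 0.64 and a largest of 1.69, for Bte-miR-125-5p and Bte-miR-100 of the let-7 cluster. Several of these pairs share a member, and the count is a description. With 15.5% of the distinct sequences tested called higher and 26.8% lower, few pairs of any kind would be called in opposite directions. For the paralogues, opposite calls depend on that of Bte-miR-252b, which was lost under 5 of 17 alternatives. Most are also much closer together than the 5669 bases between the paralogues, at 141 to 1459 bases. The exception, Bte-miR-277 and Bte-miR-34, lay 6037 bases apart and had opposite signs (−0.22 and 0.48), with neither called. Over the 7 libraries the log2 levels of the paralogues had a Pearson correlation of −0.45, while the lowest among the other 11 pairs was −0.23, for Bte-miR-3477 and Bte-miR-283. These 7 libraries include EQ2, which was low over the whole table.

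**Figure D3:**
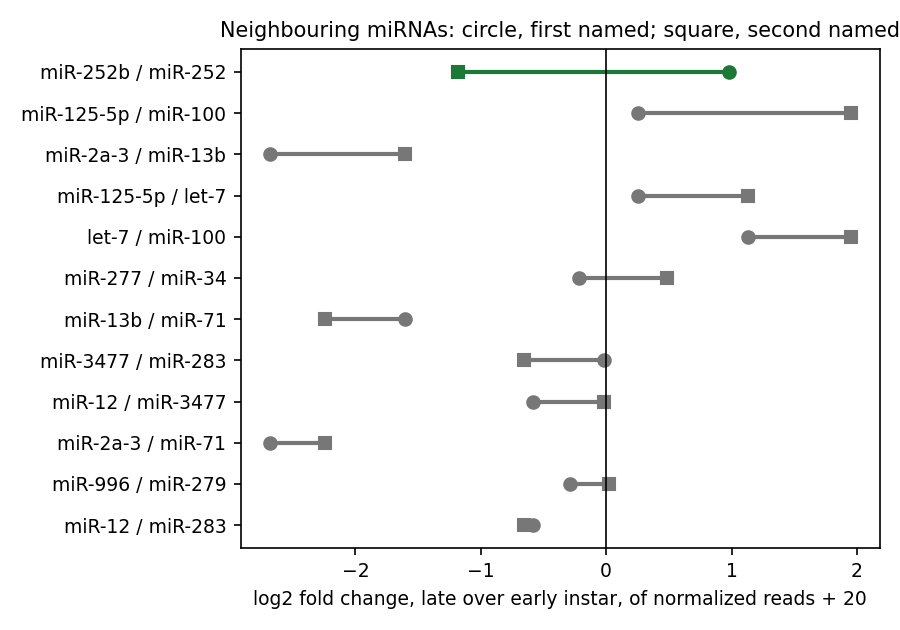
Log2 fold change, late over early instar, of normalized reads + 20 (horizontal axis) for 12 pairs of neighbouring miRNAs, circles marking the first-named and squares the second-named member. Bte-miR-252b (0.98) and Bte-miR-252 (−1.18) lie on opposite sides of 0 and 2.16 apart, while the widest of the other pairs spans 1.69.

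Only 2 other listed miRNAs lie on the same scaffold, both on the minus strand, at bases 1205627 to 1205704 and 1390034 to 1390107, far from the pair. Bte-miR-92c-2 fell, with 75, 100 and 97 reads in LQ1, LQ3 and LQ4 and 219, 285 and 288 in EQ1, EQ3 and EQ4 (log2 fold change −1.36, limma adjusted p = 1.08e-04). Bte-miR-306 had 1292, 1491 and 1626 reads in the late-instar and 1414, 1384 and 986 in the early-instar libraries, which overlap (0.23, limma adjusted p = 0.567).

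The paralogues were also set beside 7 miRNA names tied in Drosophila to ecdysone or developmental timing. They comprised 9 distinct sequences, of which 8 were tested. Bte-miR-125-3p, the other, had at most 15 reads and was not tested. Of the 8, 3 rose, 3 fell and 2 did not pass, where 42.3% of all 97 distinct sequences tested passed, 15.5% higher and 26.8% lower. The median log2 fold change was 0.37 over the 8, against −0.14 over the 97. Those that rose in late-instar larvae were Bte-miR-100 (1.95), Bte-let-7 (1.13), a timer of the larval-to-adult change that shares a cluster with miR-100 and miR-125, and Bte-miR-8 (0.97), listed at 2 loci with 1 sequence, which in Drosophila links steroid signalling to body growth. Those that fell were bantam (−1.06), a growth-promoting and anti-apoptotic miRNA in Drosophila, and both arms of miR-14, which in Drosophila regulates the ecdysone receptor, at −0.87 for the 5p and −0.89 for the 3p arm. The 5p arm lost its call without EQ3 (limma adjusted p = 0.0570) and with EQ2 (−0.54, limma adjusted p = 0.142, or −0.55, limma adjusted p = 0.0821, with a common table total as well). The 3p arm lost it without LQ1 (−0.61, limma adjusted p = 0.0656) and with a pseudocount of 1 (−0.90, limma adjusted p = 0.0570). Bte-miR-34 (0.48, limma adjusted p = 0.130) and Bte-miR-125-5p (0.26, limma adjusted p = 0.496) did not pass, although Bte-miR-34 did once the libraries were rescaled to a common total (0.63, limma adjusted p = 0.0191). Among these 8, Bte-miR-252b was nearest in size to Bte-miR-8 and Bte-let-7, and Bte-miR-252 to bantam. Off the list, Bte-miR-2796 (0.96) was also near Bte-miR-252b, and Bte-miR-7 (−1.13) was nearer Bte-miR-252 than bantam was. Nearness in size thus does not set the list apart.

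**Figure D4:**
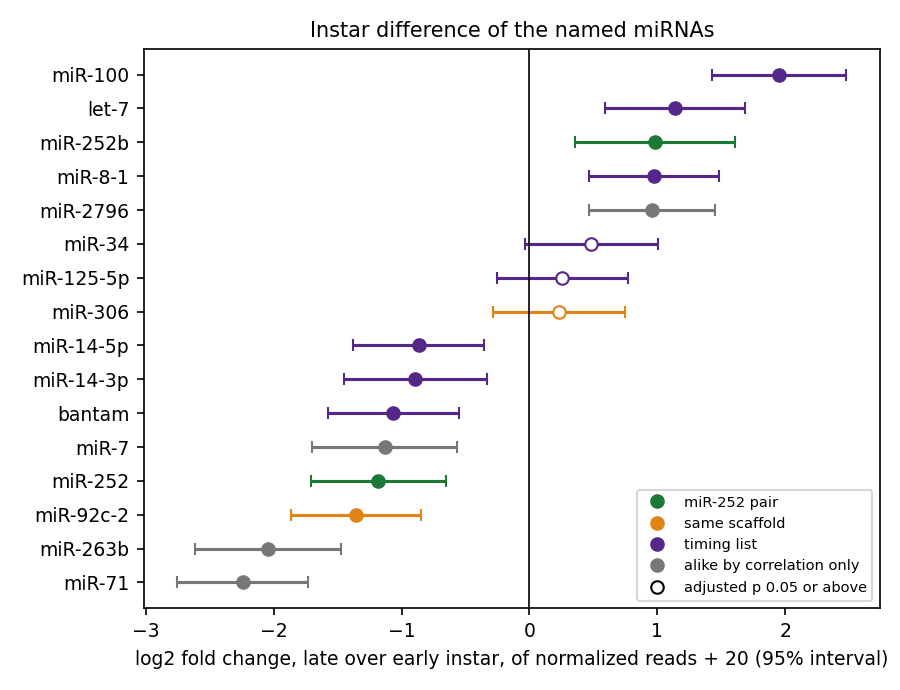
Log2 fold change, late over early instar, of normalized reads + 20 (horizontal axis), as points with 95% intervals from limma. The paralogues are in green, the miRNAs of the same scaffold in orange and the timing list in purple. The others most alike in profile are in grey, and points are open where the adjusted p was 0.05 or above. Bte-miR-252b, at 0.98, lies beside Bte-miR-8 (0.97), and Bte-miR-252, at −1.18, lies below bantam (−1.06).

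The miRNAs whose log2 levels over the 7 libraries were most like Bte-miR-252, of 96 compared, were Bte-miR-263b (Pearson r = 0.946), Bte-miR-7 (0.943) and Bte-miR-71 (0.942). Their log2 fold changes were −2.04, −1.13 and −2.24. Bte-miR-263b stood at 4, 12 and 5 reads in LQ1, LQ3 and LQ4, against 71, 148 and 68 in EQ1, EQ3 and EQ4. Bte-miR-252b was most like Bte-miR-8 (0.922), Bte-miR-2796 (0.898) and Bte-let-7 (0.898), whose log2 fold changes were 0.97, 0.96 and 1.13. Bte-miR-2796 held 101, 96 and 90 reads in LQ1, LQ3 and LQ4, against 35, 41 and 43 in EQ1, EQ3 and EQ4. The libraries fall into 2 instars, and EQ2 was low over the whole table. These correlations carry both differences and are given as a description. Bte-miR-252b came 79th in likeness to Bte-miR-252 among the 96.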

How the data were processed

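Small RNA libraries were made with HD 3′ adapters, whose degenerate end is meant to lessen ligation bias. The authors mapped reads to genome v.1.0 with PatMaN, scaled each library to the same fixed total of accepted reads, named miRNAs by alignment to insect entries of miRBase v.21, and deposited normalized reads as whole numbers. The deposited values are therefore treated as a score and not as counts, the table carries no read totals per library, those the study states were not used here, and no counting intervals are given. Of the columns, 7 were used, and 7 that belong to samples outside those listed were not. Replicate 2 was left out as in the study, with EQ2 added as an alternative.

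Rows that reached 10 in 3 or more libraries were fitted with limma 3.58.1 (R 4.3.3) on log2(value + 20), a scale that understates changes of low miRNAs. Benjamini-Hochberg adjustment covered all rows tested, with a threshold of 0.05. Single values were compared by exact two-sided permutation tests (scipy 1.17.1). Precursors were folded with RNAfold 2.7.2. The code was tested on simulated data. Alternatives were other pseudocounts, filters, scalings, each library left out, and a replicate block.

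Replicate numbers pair the instars, since pools of the same number came from 1 colony. Deviations of paired libraries from their instar means correlated at 0.03, 0.08 and 0.47 for colonies 1, 3 and 4. Between libraries of different numbers they correlated at −0.44 to 0.34. LQ1 correlated more with EQ3 (0.06), and LQ3 more with EQ1 (0.34), than with their own partners, while LQ4 correlated most with EQ4. The pairing therefore rests on how the study sampled its colonies and not on these values. Permutation p-values rest on the pools of the value tested alone. The SE, interval and p-value from limma also borrow the spread of the other rows fitted. For a row that varies more than most, they are smaller than its own pools would give. Named miRNAs were the pair, others on its scaffold, sequences sharing bases 2 to 7, a timing list and the 3 most correlated with each member. These members and lists were chosen with earlier results of these data known.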

Additional observations from a re-analysis of the deposited data

Results flagged for a closer look

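In 3 of 21 values tested, 1 of the 4 early-instar libraries stood apart from the rest, by the gap to its nearest neighbour as a share of the whole range, which passed Dixon's 95% critical value. Chance alone flags about 1 in 20 groups. The summed reads of the table were low in EQ2 (0.893). The share of Bte-miR-252b in the pair was high in EQ4 (0.889), at 31.0%, against 12.4 to 14.5% in EQ1, EQ2 and EQ3. The log2 ratio of Bte-miR-252b to Bte-miR-252 was high in EQ4 as well (0.856), and rests on the same reads as the share.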

How the results depend on the processing

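No result reversed. With the replicate block, Bte-miR-252 (limma adjusted p = 5.07e-04) and Bte-miR-252b (limma adjusted p = 0.00245) kept their calls, and the block changed no other call, with the same 43 of 100 rows passing. Bte-miR-252b lost its call with a pseudocount of 1 (1.01, limma adjusted p = 0.0827) or 100 (0.87, limma adjusted p = 0.0643), and ranged over 0.68 to 1.34 as single libraries were left out. Bte-miR-252 kept its call under all 17 alternatives, at −1.32 to −1.05 with single libraries left out. Its log2 OFC was −0.93 to −0.62 with single libraries left out, 0 with EQ2 included, and −0.59 with EQ2 on a common table total. The log2 OFC of Bte-miR-252b was 0.042 to 0.88 with single libraries left out, the highest without EQ4. Rows passing the test fell to 24 of 47 with a mean of at least 200, where fewer rows were tested, and all 24 also passed before. They numbered 33 to 39 with single libraries left out. Rows past a log2 OFC of 1 numbered 23 with an offset of 1, and 12 to 16 with single libraries left out. For 14 other named miRNAs, 224 of 232 values stayed on their side of the threshold, 5 lost it and 3 gained it. The fits with EQ2 on rescaled values and with EQ2 in the block were added after seeing the data. In the block, EQ2 has no late-instar partner and adds nothing to the estimate. Changes of filter and the replicate block leave the estimate of a miRNA unchanged and bear only on its p-value. With 3 pools per instar, permutation cannot pass 0.05, and the depth of each library was not used in any test.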
